A study of Homo sapiens with 6 samples.

Results

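The genes of heme breakdown, heme movement and heme sensing were examined in OCI-AML5, a cell line established from human acute myeloid leukemia. They were chosen by name, 9 of the 60609 genes in the files, and mapped to their Ensembl identifiers. They comprise the heme oxygenases *HMOX1* and *HMOX2*, the biliverdin reductases *BLVRA* and *BLVRB*, the membrane transporters *FLVCR1*, *FLVCR2* and *SLC48A1*, the heme-binding membrane protein *PGRMC1*, and the heme-sensing repressor *BACH1*. All 9 had enough counts to be among the 20725 genes tested. RNA was taken after 24 hours from cells given 1 μM of the compound S767 or its solvent, DMSO, with 3 libraries a group. All cells grew in medium with serum and the cytokine GM-CSF. The comparison is part of a search for how S767 acts on leukemia cells, and it covers 1 cell line, 1 dose and 1 time. The study's methods say that cells were treated in triplicate, and neither they nor the labels say whether replicates came from separately grown cultures, so p-values measure the spread between these libraries, which may be technical.

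Heme is an iron-containing porphyrin that serves as the cofactor of hemoglobin, cytochromes and other enzymes, and that is toxic when free. Heme oxygenase opens the ring and releases iron, carbon monoxide and biliverdin, which biliverdin reductase turns into bilirubin. BACH1 pairs with small MAF proteins on DNA elements near *HMOX1* and other antioxidant and iron genes and holds them down, and heme binding releases it from DNA and marks it for degradation. In most cell types *HMOX1* is the strongly inducible enzyme, by heme, metals and oxidants, whereas *HMOX2* is made constitutively.

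Gene counts on the reverse strand came to 149994700 fragments in the shallowest library and 258029564 in the deepest. Of 10 myeloid markers, 8 were above 1 TPM (a level per transcript length, scaled to the same total in each library) in every library, and their summed level was 549 to 598 TPM in DMSO and 538 to 604 TPM in S767. The exceptions were *CD34*, at 0.61 to 2.65 TPM, and *KIT*, at 0.14 to 0.42 TPM. Of 9 markers of erythroid cells, which make most of the heme of the body, only *EPOR* was above 1 TPM in every library, and *HBA1*, *HBG1*, *HBG2* and *ALAS2* were at 0 TPM throughout. Libraries with the same replicate number deviated together, whatever the treatment. Each gene was therefore also fitted with the replicate number as a block, which compares S767 with DMSO within the 3 same-numbered pairs.

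None of the 9 genes passed an adjusted p of 0.05 in the comparison of S767 with DMSO, by edgeR's quasi-likelihood test with or without the block. The log2 fold changes of these genes ran from -0.06 for *BLVRB* to 0.19 for *BLVRA*, with a median of -0.01 against -0.00024 over all genes tested. Over all genes, 1 of 20725 (0.00483%) passed without the block and 670 (3.23%) passed with it. At an unadjusted P under 0.05, 0 of the 9 genes passed without the block, where 3.53% of all genes did. With the block *BLVRA* and *FLVCR2* passed that limit, where 16.8% of all genes did. The 95% interval without the block was widest for *HMOX1*, at 0.709 to 1.38 in fold. In bulk libraries, fewer cells of a type and less RNA per cell cannot be told apart.

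**Figure D1:**
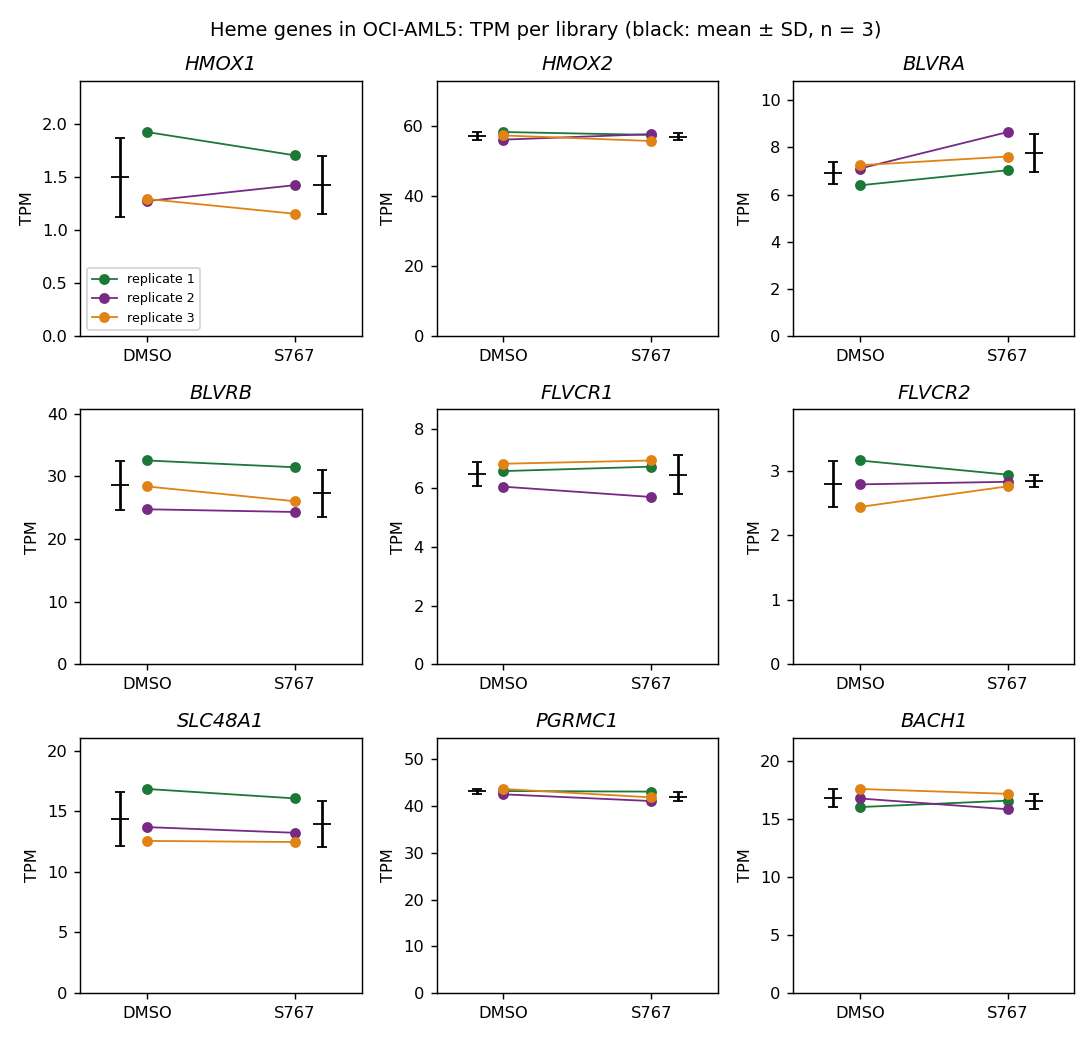
Level in TPM of each of the 9 genes (vertical axes, each from 0) in the DMSO and S767 libraries, with lines joining libraries of the same replicate number and black bars giving the mean ± SD of 3 libraries. *HMOX1* stays between 1.15 and 1.92 TPM and *HMOX2* between 55.8 and 58.4 TPM in all 6 libraries, and replicate 1 is the highest library of *HMOX1*, *BLVRB* and *SLC48A1* under both treatments.

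In TPM, the most abundant of the 9 transcripts was *HMOX2*, with a mean of 57.2 over the 6 libraries, ahead of *PGRMC1* at 42.6 and *BLVRB* at 27.9. *BACH1* at 16.6 and *SLC48A1* at 14.1 followed, then *BLVRA* at 7.34, *FLVCR1* at 6.46, *FLVCR2* at 2.82 and *HMOX1* at 1.46. The libraries of *BACH1* and *SLC48A1* overlapped, as did those of *BLVRA* and *FLVCR1*, so the order within these neighbours was not beyond their spread. All other neighbours in the order had library ranges that did not overlap. Among all genes tested, *HMOX2* lay at the 87.7th percentile of mean TPM and *HMOX1* at the 42.1st.

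*HMOX1* (ENSG00000100292.17, chr22:35380361-35394214, plus strand, GRCh38) encodes the inducible heme oxygenase. Its level in DMSO replicates 1, 2 and 3 was 1.92, 1.27 and 1.29 TPM, and in S767 it was 1.70, 1.42 and 1.15 TPM, from 187 to 427 fragments per library. Replicate 1 was the highest library under each treatment, and the groups overlapped fully. The means were 1.49 ± 0.370 TPM in DMSO and 1.42 ± 0.275 TPM in S767 (SD, n = 3). Within pairs, the S767 library differed from its DMSO partner by -0.14, 0.24 and -0.10 in log2 CPM, counts scaled to a common library size. The log2 fold change was -0.01 (SE 0.21, adjusted p = 1.00, edgeR), and -0.02 (SE 0.10, 95% interval -0.24 to 0.21, adjusted p = 0.962) with the block. The pairs differed in sign, and the interval with the block ran from 0.848 to 1.15 in fold.

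*HMOX2* (ENSG00000103415.12, chr16:4474690-4510347, plus strand), the constitutive enzyme, was at 58.4, 56.2 and 57.4 TPM in DMSO replicates 1, 2 and 3 and at 57.5, 57.8 and 55.8 TPM in S767. All 6 libraries lay within a narrow band, and the groups overlapped. Its log2 fold change was -0.0037 (SE 0.04, 95% interval -0.10 to 0.09). Its locus overlaps *NMRAL1* on the opposite strand. The stranded counts behind the fold change keep the strands apart, but the levels in TPM do not come from those counts. The *HMOX2* transcript was 30.4 to 48.5 times as abundant as that of *HMOX1*. The ratio of *HMOX1* to *HMOX2* was 0.0260 ± 0.00598 in DMSO and 0.0249 ± 0.00448 in S767 (SD, n = 3, exact permutation test of its log2, two-sided, p = 0.7). This test does not use the pairing of the libraries, and with 3 libraries against 3 the smallest p it allows is 0.1.

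The biliverdin reductases had the highest and the lowest estimates of the set. *BLVRA* (ENSG00000106605.11, chr7:43758680-43807342, plus strand), which encodes the main biliverdin reductase of adult tissue, was at 6.39, 7.10 and 7.24 TPM in DMSO replicates 1, 2 and 3. In S767 it was at 7.03, 8.65 and 7.61 TPM. S767 was the higher library in each of the 3 pairs, but the groups overlapped, since S767 replicate 1 was below DMSO replicates 2 and 3. Of the 9 genes, *BLVRA* and *FLVCR2* were higher in 3 of 3 pairs, as 19.9% of all genes were, and *SLC48A1* and *PGRMC1* lower in 3 of 3, as 17.8% were, together 4 of 9 against 37.8%. The log2 fold change was 0.19 (SE 0.12, 95% interval -0.08 to 0.46) without the block and 0.18 (SE 0.07, 95% interval 0.04 to 0.33) with it. The adjusted p with the block was 0.179 (edgeR), and the pair differences were 0.06, 0.34 and 0.16 in log2 CPM. Without the replicate 1 pair, the log2 fold change with the block was 0.25 (adjusted p = 0.0254), in a fit in which 9.86% of all genes passed. It did not pass without the replicate 2 pair, at 0.11 (adjusted p = 0.755, edgeR), or without the replicate 3 pair, at 0.20 (adjusted p = 0.222). The *BLVRA* locus overlaps a processed pseudogene on the same strand.

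*BLVRB* (ENSG00000090013.11, chr19:40447765-40465840, minus strand) encodes a flavin reductase that acts on other biliverdin isomers. It was at 32.5, 24.7 and 28.4 TPM in DMSO replicates 1, 2 and 3 and at 31.4, 24.3 and 26.0 TPM in S767. The S767 values followed the DMSO values of the same number, with replicate 1 highest and replicate 2 lowest in both groups. The log2 fold change was -0.06 (SE 0.10), and -0.06 (SE 0.04, adjusted p = 0.521, edgeR) with the block. *BLVRB* was the more abundant reductase in every library. The *BLVRA* to *BLVRB* ratio in TPM was 0.196, 0.287 and 0.255 in DMSO replicates 1, 2 and 3 and 0.224, 0.356 and 0.292 in S767. It was higher in S767 in 3 of 3 pairs, and the groups overlapped. The exact permutation test, which does not use the pairing, gave p = 0.4 (0.8 after Benjamini-Hochberg adjustment over 3 paralog ratios).

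*FLVCR1* (ENSG00000162769.13, chr1:212858255-212899363, plus strand), described as a heme exporter and more recently as a choline transporter, was at 6.57, 6.04 and 6.82 TPM in DMSO replicates 1, 2 and 3. In S767 it was at 6.72, 5.69 and 6.93 TPM. Replicate 2 was the lowest library in each group, and the groups overlapped. The log2 fold change was -0.03 (SE 0.09, 95% interval -0.22 to 0.17), and -0.03 (SE 0.03, 95% interval -0.09 to 0.04) with the block.

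*FLVCR2* (ENSG00000119686.10, chr14:75578617-75663214, plus strand) is its paralog. Its counts, normalized for library size, were 6.98, 6.38 and 6.0 CPM in DMSO replicates 1, 2 and 3 and 7.13, 7.39 and 6.88 CPM in S767. The lowest S767 library was just under the highest DMSO library, and S767 was higher in each of the 3 pairs. The log2 fold change was 0.15 (SE 0.08, 95% interval -0.05 to 0.34), and 0.15 (SE 0.06, 95% interval 0.02 to 0.27, adjusted p = 0.199, edgeR) with the block. Without the replicate 1 pair it was 0.20 (adjusted p = 0.0364) with the block, in a fit in which 9.86% of all genes passed. *FLVCR2* did not pass without the replicate 2 pair or without the replicate 3 pair, and its estimates with a pair left out ran from 0.11 to 0.20. The level per length did not follow: *FLVCR2* was at 3.16, 2.79 and 2.44 TPM in DMSO and 2.94, 2.83 and 2.76 TPM in S767, and the log2 fold change of TPM with 0.1 added was 0.03. RSEM's effective length, the number of start positions a fragment can have on the gene's transcripts, was 2846, 2988 and 3184 bases in DMSO and 3173, 3289 and 3180 bases in S767. Its locus overlaps *TTLL5* on the same strand, and fragments in the shared stretch cannot be assigned by strand. The ratio of *FLVCR1* to *FLVCR2* in TPM was 2.35 ± 0.391 in DMSO and 2.27 ± 0.251 in S767 (SD, n = 3, exact permutation p = 0.8).

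*SLC48A1* (ENSG00000211584.14, chr12:47753916-47782753, plus strand) encodes HRG1, which carries heme out of endosomes and lysosomes. It was at 16.8, 13.7 and 12.6 TPM in DMSO replicates 1, 2 and 3 and at 16.1, 13.2 and 12.5 TPM in S767. Each S767 library was close to the DMSO library of its number, and the groups overlapped fully. The log2 fold change was -0.04 (SE 0.12), and -0.04 (SE 0.03, 95% interval -0.11 to 0.03) with the block. Its locus overlaps *RAPGEF3* and *HDAC7* on the opposite strand and a sense-intronic transcript on the same strand.

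*PGRMC1* (ENSG00000101856.10, chrX:119236245-119244466, plus strand), a heme-binding membrane protein that works with cytochromes P450 and has been described as a heme chaperone, was alone among the 9 genes in that its groups did not overlap in CPM. Its values were 56.7, 57.0 and 57.4 CPM in DMSO replicates 1, 2 and 3 and 55.6, 56.1 and 56.6 CPM in S767. The highest S767 library lay just under the lowest DMSO library. The gap was small, with a log2 fold change of -0.02 (SE 0.04, 95% interval -0.10 to 0.06) and -0.02 (SE 0.02, adjusted p = 0.701, edgeR) with the block. Of all genes tested, 9.21% had groups that did not overlap. In TPM the *PGRMC1* groups overlapped, at 43.2, 42.5 and 43.7 in DMSO and 43.1, 41.1 and 41.9 in S767.

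*BACH1* (ENSG00000156273.16, chr21:29194071-29630751, plus strand) was at 16.0, 16.8 and 17.6 TPM in DMSO replicates 1, 2 and 3 and at 16.6, 15.8 and 17.2 TPM in S767. Replicate 3 was the highest library under each treatment, and the groups overlapped. Its log2 fold change was 0.0094 (SE 0.05, 95% interval -0.10 to 0.12), and 0.01 (SE 0.03, 95% interval -0.05 to 0.07, adjusted p = 0.896, edgeR) with the block. The transcript says nothing of the BACH1 protein, its heme binding or its place in the cell, which were not measured. Non-coding transcripts and a processed pseudogene overlap its locus on the same strand, and *GRIK1* does so on the opposite strand.

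**Figure D2:**
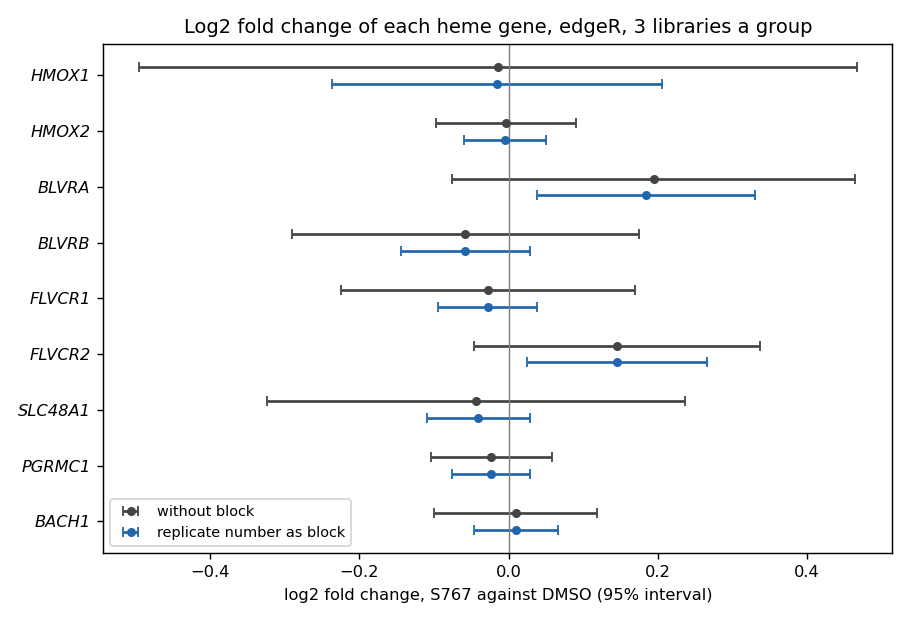
Log2 fold change of each of the 9 genes in S767 against DMSO (horizontal axis, 3 libraries a group) with its 95% interval from edgeR, without the block in grey and with the replicate number as a block in blue. Every grey interval spans 0, and with the block the intervals of *BLVRA*, at 0.04 to 0.33, and *FLVCR2*, at 0.02 to 0.27, lie above 0 before adjustment over all genes.

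The replicate number accounted for more of the variation of these genes than the treatment did. As a share of the sum of squares of log2 CPM over the 6 libraries, the replicate number took a median of 84.2% over the 9 genes and the treatment 1.75%. Over all genes tested the medians were 62.8% and 10.2%, and for 9601 more abundant genes, those whose log2 CPM averaged over 3, they were 71.4% and 10.3%. *HMOX1* stood at 88.9% for replicate number and 0.000396% for treatment, and its pair means ranged over 0.58 in log2 CPM. *SLC48A1*, at 96.6% and 1.35%, ranged over 0.40. *FLVCR2* and *PGRMC1* had more of their variation between treatments, at 52.7% and 65.2%, but the total variation of *PGRMC1* was small and its pair means ranged over 0.02. The replicate number has more levels than the treatment, so it tends to take the larger share even where neither has an effect. No test was made of these shares.

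**Figure D3:**
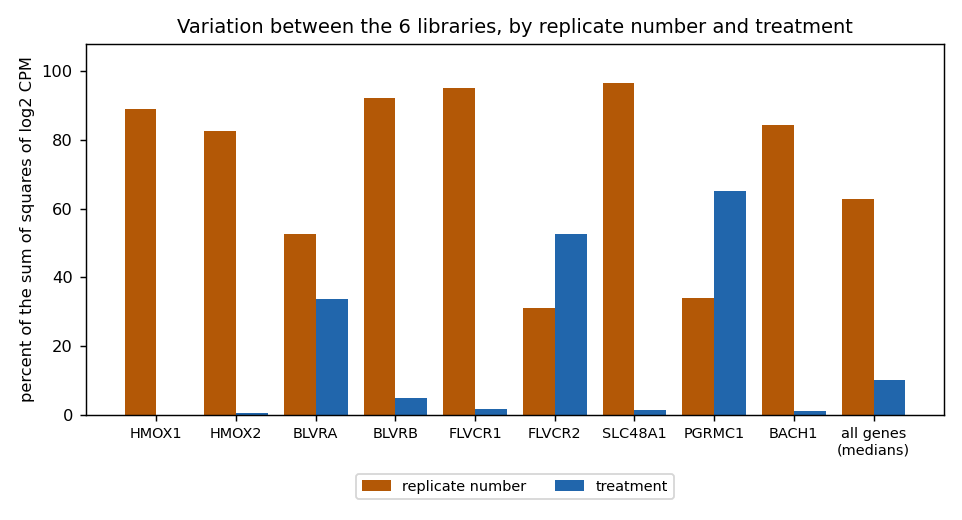
Percent of the sum of squares of log2 CPM over the 6 libraries (vertical axis) that falls to the replicate number (orange) and to the treatment (blue), for each of the 9 genes and as medians over all genes tested. The replicate number takes 88.9% of the variation of *HMOX1* and 96.6% of that of *SLC48A1*, and the treatment takes 65.2% of that of *PGRMC1*.

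Some of the genes varied together across the 6 libraries. Pearson's r of log2 CPM was 0.931 between *HMOX1* and *SLC48A1* and 0.830 between *HMOX1* and *BLVRB*, genes with replicate 1 highest in both groups. The lowest r among the 9 genes was -0.872, between *HMOX2* and *FLVCR1*, next to -0.871 between *FLVCR2* and *PGRMC1*. *BACH1* had r of -0.740 with *HMOX1*, -0.776 with *HMOX2* and -0.835 with *SLC48A1*, and its highest was 0.415, with *FLVCR1*. Among the same 9601 genes, those most like *HMOX1* were *UBA6* (r = 0.998), *RHEB* (0.993), *SNX11* (0.992), *TMEM205* (0.991) and *PLEKHM1* (0.991). Those most like *BACH1* were *USP3* (r = 0.980), *SERINC1* (0.978), *USP49* (0.976), *TOGARAM1* (0.975) and *MIOS* (0.970). These correlations describe 6 libraries that share a replicate structure, and they were not tested.

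The other genes of the pathway gave no call either. Of 11 further genes linked to heme transport, 9 were tested, and 0 passed an adjusted p of 0.05 with or without the block. Their median log2 fold change was 0.04, in a range from -0.75 to 0.53. The genes at both ends of this range were near the floor, at 0.08 TPM or less in every library. The most abundant were *ABCB10*, a transporter of the inner mitochondrial membrane, at 122 ± 3.56 TPM in DMSO and 122 ± 3.77 TPM in S767, and *ABCC5*, an ATP-driven efflux pump, at 14.7 ± 1.47 and 14.8 ± 1.80 TPM (SD, n = 3). Of 10 genes that act with heme oxygenase or dispose of bilirubin, 7 were tested and 0 passed in either fit, with a median of -0.0070. In this list *HM13*, the signal peptide peptidase that can cut HMOX1 from its membrane, was at 132 ± 3.74 TPM in DMSO and 134 ± 0.462 TPM in S767. *CYB5R3*, cytochrome b5 reductase, was at 75.7 ± 1.12 and 75.5 ± 3.77 TPM. *UGT1A1*, *SLCO1B1* and *SLCO1B3*, which conjugate bilirubin or carry it into the liver, had too few counts to be tested.

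The genes around BACH1 were examined in 2 groups, 10 partners, rivals and turnover factors, and 13 target genes other than *HMOX1*. Without the block, 0 of these 23 passed an adjusted p of 0.05, and at an unadjusted P under 0.05 *SLC40A1* was higher and *MAFF*, *SLC7A11*, *GCLM* and *HK2* were lower in S767. With the block, 8 of the 23 passed (34.8%), where 3.23% of all genes did. Most of the 23 had an SE with the block under the median of 0.064 over all genes, so smaller changes could pass. Their share was not set against genes of like SE. Among the 10 partners the call with the block was *MAFF*. Among the 13 targets 7 passed (53.8%), 3 of them higher, where 2.16% of all genes were called higher, and 4 lower, where 1.08% were called lower, and the median log2 fold change over the 23 was -0.01. The groups of *MAFF*, *HK2* and *GAPDH* did not overlap in CPM, 3 of 23, against 9.21% of all genes. The target list was not split by the direction in which BACH1 acts on each gene, so higher and lower calls are not read as its action. These genes were listed with earlier results of these data known, so their count is a description.

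*MAFF*, a small MAF protein that pairs with BACH1 or with its rival NRF2, fell in S767 in the fit with the block. It was at 0.95, 1.5 and 1.3 TPM in DMSO replicates 1, 2 and 3 and at 0.73, 0.67 and 0.65 TPM in S767. All 3 S767 libraries were below all 3 DMSO libraries. Its log2 fold change was -0.80 (SE 0.18) without the block, where its adjusted p was 1.00 in edgeR and 0.0139 in DESeq2, and -0.78 (SE 0.12, adjusted p = 0.00642, edgeR) with it. For *MAFG* and *MAFK*, the other small MAF genes, the log2 fold changes with the block were 0.00016 (SE 0.02) and -0.09 (SE 0.03), and neither passed.

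Of the targets, *GCLM*, the modifier subunit of the enzyme that starts glutathione synthesis, fell with the block by 0.43 on the log2 scale (SE 0.03, adjusted p = 1.01e-05, edgeR). It was at 15.6, 12.3 and 11.1 TPM in DMSO replicates 1, 2 and 3 and at 11.7, 8.98 and 7.89 TPM in S767. The S767 library was the lower in each pair, although the groups overlapped. *SLC7A11*, the cystine importer, fell by 0.44 (SE 0.06, adjusted p = 0.00348) and *ME1*, the cytosolic malic enzyme, by 0.29 (SE 0.05, adjusted p = 0.00820). *HK2*, a hexokinase, fell by 0.15 (SE 0.03, adjusted p = 0.0216). *GCLC*, the catalytic partner of *GCLM*, had a log2 fold change of -0.0099 (SE 0.02).

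*NQO1*, a quinone reductase, rose with the block by 0.46 (SE 0.04, adjusted p = 0.000298, edgeR). It was at 11.8, 10.2 and 6.87 TPM in DMSO replicates 1, 2 and 3 and at 16.8, 13.6 and 9.59 TPM in S767. S767 was the higher library in each pair, and the groups overlapped. *SLC40A1*, which encodes the iron exporter ferroportin, rose by 0.46 (SE 0.06, adjusted p = 0.00146), and *TXNRD1*, thioredoxin reductase, by 0.11 (SE 0.02, adjusted p = 0.0252). The ferritin chains *FTL* and *FTH1* did not pass, with log2 fold changes with the block of -0.0053 (SE 0.03) and 0.07 (SE 0.03). *FTL* was at 2607 ± 614 TPM in DMSO and 2577 ± 573 TPM in S767 (SD, n = 3). With the replicate 2 pair left out, *NQO1*, *GCLM* and *SLC7A11* passed and the other 5 called genes did not, in a fit in which 0.113% of all genes passed. With the replicate 1 pair left out, where 9.86% of all genes passed, all 8 did, and so did *MAFK*, *FBXO22* and *FTH1*, with log2 fold changes of -0.11, 0.10 and 0.12. With the replicate 3 pair left out, the same 8 passed, in a fit in which 636 genes passed in all.

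**Figure D4:**
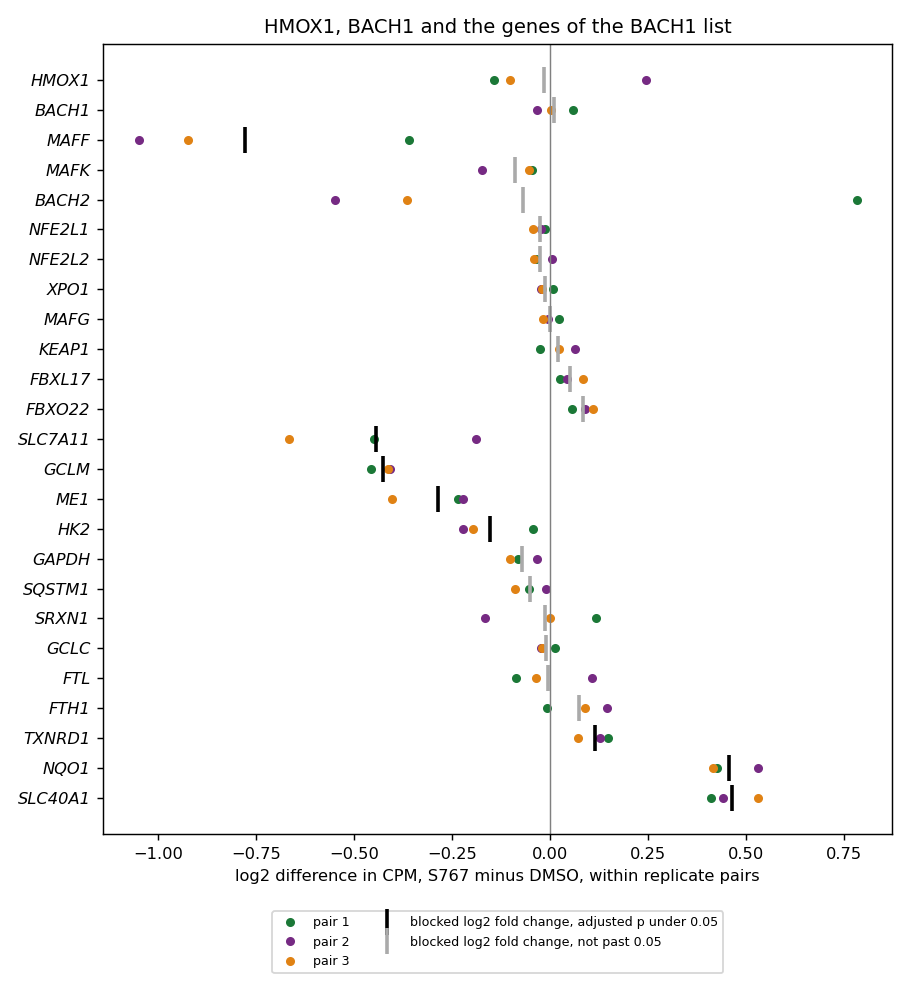
Difference between S767 and DMSO in log2 CPM within each same-numbered pair of libraries (horizontal axis, 1 point a pair) for *HMOX1*, *BACH1*, 10 partners and 13 targets of BACH1, with a vertical mark at the log2 fold change of the fit with the block, black where the adjusted p is under 0.05 and grey otherwise. *HMOX1* and *BACH1* straddle 0, *SLC40A1*, *NQO1* and *TXNRD1* lie to the right, and *MAFF*, *SLC7A11*, *GCLM*, *ME1* and *HK2* lie to the left.

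The promoters were searched for 2 elements that BACH1 or NRF2 with a small MAF can bind, TGANTCA and TGACNNNGC, on both strands. A TGANTCA match reads as a match on both strands and may overlap TGACNNNGC. RefSeq windows of 250 bases before to 50 bases after each start site held 35116 windows of 27305 genes, and 7.71% of them contained TGANTCA and 13.3% contained TGACNNNGC. Windows were found for 8 of the 9 genes, not for *HMOX1*, and these 12 windows held TGANTCA in 2, those of *BACH1* at position -48 and of a start of *FLVCR2* inside the gene at position -132, and TGACNNNGC in 0. Of the 13 targets, 11 had a window, and of their 15 windows TGANTCA was in 1, that of *ME1*, and TGACNNNGC in 5, those of *GCLM*, *TXNRD1* at both its starts, *ME1* and *GAPDH*. The stretches before the start site are shown for *BACH1* and *FLVCR2*, which hold the matches among the 9 genes, and for *GCLM*, *ME1* and *TXNRD1*, targets that passed with the block in opposite directions. They are from GRCh38.p14 and read 5′ to 3′ toward the gene, with capitals for matches that lie whole within the stretch. A further match in each of the *TXNRD1* and *ME1* windows, across or beyond the start site, is not marked. *BACH1* is chr21:29298672-29298921 (plus strand), *FLVCR2* is chr14:75605290-75605539 (plus), *GCLM* is chr1:93909431-93909680 (minus), *ME1* is chr6:83431052-83431301 (minus) and *TXNRD1* is chr12:104215529-104215778 (plus).
BACH1: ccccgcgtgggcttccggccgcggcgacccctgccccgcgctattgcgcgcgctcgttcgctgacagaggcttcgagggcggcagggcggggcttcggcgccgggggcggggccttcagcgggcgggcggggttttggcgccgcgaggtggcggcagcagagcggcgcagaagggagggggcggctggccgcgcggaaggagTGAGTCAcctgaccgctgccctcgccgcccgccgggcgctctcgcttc
FLVCR2: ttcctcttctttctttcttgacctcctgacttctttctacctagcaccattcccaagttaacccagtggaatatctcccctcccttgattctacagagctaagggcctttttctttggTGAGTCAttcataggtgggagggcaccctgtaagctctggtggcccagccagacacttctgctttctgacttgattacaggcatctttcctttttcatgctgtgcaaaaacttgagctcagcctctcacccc
GCLM: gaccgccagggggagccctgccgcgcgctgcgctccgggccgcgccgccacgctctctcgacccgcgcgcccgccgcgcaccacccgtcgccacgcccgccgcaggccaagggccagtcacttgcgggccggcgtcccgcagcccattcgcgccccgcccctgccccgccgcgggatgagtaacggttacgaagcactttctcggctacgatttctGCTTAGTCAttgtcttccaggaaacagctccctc
ME1: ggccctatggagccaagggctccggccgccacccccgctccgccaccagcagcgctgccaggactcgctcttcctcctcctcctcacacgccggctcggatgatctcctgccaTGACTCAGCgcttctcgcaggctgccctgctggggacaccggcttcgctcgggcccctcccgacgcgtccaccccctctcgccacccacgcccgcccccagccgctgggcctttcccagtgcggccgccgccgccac
TXNRD1: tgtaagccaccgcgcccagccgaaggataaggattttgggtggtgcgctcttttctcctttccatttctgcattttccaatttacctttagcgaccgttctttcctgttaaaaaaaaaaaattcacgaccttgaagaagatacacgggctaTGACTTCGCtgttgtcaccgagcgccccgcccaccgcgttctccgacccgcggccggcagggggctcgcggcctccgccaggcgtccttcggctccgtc

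*ME1* and *GCLM*, which fell, and *TXNRD1*, which rose, all carried TGACNNNGC in these stretches, and *BACH1* and *FLVCR2*, with TGANTCA, did not pass the test. *NQO1*, *SLC40A1* and *HK2* passed with the block and had neither element in their windows, and *GAPDH* had TGACNNNGC and did not pass. *SLC7A11* passed and had no window. Of the partners, *MAFF*, which fell, held TGACNNNGC at position -122. Windows of *KEAP1* and *XPO1* held it too, and these genes did not pass. A match is a run of letters in these windows, and binding was not measured. Sequence outside the windows was not searched, so a gene without a match may hold an element farther from its start site.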

How the data were processed

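Stranded libraries of polyadenylated RNA from 3 DMSO and 3 S767 samples of OCI-AML5 were analysed. Per the submitters' processing notes, reads were aligned with STAR 2.7.1a to GRCh38 and quantified with RSEM 1.2.28, after trimming with Trimmomatic. The annotation release is not given in the sources used here. The authors deposited whole-number fragment counts per gene without normalization, and RSEM tables with expected counts, which are estimated counts, and TPM values, scaled to the same total in every library. The reverse-strand counts were used, since forward counts were 6.44 to 6.58% of both. Lines that name no gene (19.7 to 20.7% of fragments) were left out.

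Counts were scaled with TMM, filtered with filterByExpr (minimum count 10) and compared in R 4.3.3 by edgeR 4.0.16 (glmQLFit and glmQLFTest), adjusting p-values over 20725 genes after Benjamini and Hochberg. The SE is the log2 fold change over the square root of F. The log2 CPM values used a prior count of 2. The fit has no block because the study names none. Deviations from group means over 6191 genes correlated at 0.78, 0.87 and 0.75 for same-numbered libraries, so the numbers pair the libraries. The other correlations were negative, which adds little, since deviations from a group mean cancel within the group. The pairing comes from these values, since the labels do not say what a number shares. No pair of libraries was a repeat, with a chi-square per gene of 15.2 or more. Depth of 149994700 to 258029564 fragments makes counting error small except for low genes.

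Alternatives were limma-voom (limma 3.58.1), DESeq2 1.42.0, other factors and filters, expected counts rounded to whole numbers, counts without strand, log2(TPM + 1) and log2(TPM + 0.1), the block, and leaving out libraries or pairs. The fits were tested on simulated data. The first criterion for recovering changed genes was narrowly missed, and it was then limited to genes with higher counts. The fit without the block under simulated replicate effects fell below this and was not held to it. That is the main fit here, and these libraries do share deviations by replicate number. Positions are from GENCODE 29, whose versions of the 9 genes are each 1 lower than in the files. Promoters are RefSeq's on GRCh38.p14. The 9 genes and the lists were chosen with earlier results of these data known. Genes outside the 9 are named where they had P under 0.05 without the block or an adjusted p under 0.05 with it, as up to 2 most abundant examples a list, or as the 5 most correlated with *HMOX1* and with *BACH1*. Others, named to complete a family, for a promoter match or because their groups did not overlap, were chosen after their values were seen.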

Additional observations from a re-analysis of the deposited data

How the results depend on the processing

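Each of the 9 genes was recomputed under 23 alternatives, 207 comparisons, of which 2 passed an adjusted p of 0.05, *BLVRA* and *FLVCR2* with the replicate block and without the replicate 1 pair, and 23 changed sign, all for *HMOX1*, *HMOX2*, *BLVRB*, *FLVCR1*, *SLC48A1* or *BACH1*, whose estimates lie near 0. With the block and a pair left out, few libraries remain. The count over all genes then ran from 24 to 2034, so calls from different left-out pairs are not on one footing. Without leaving out a library, no log2 fold change exceeded 0.20 in size. Sign changes were *HMOX1* at 0.00025 with limma-voom, *HMOX2* at 0.0026 with RSEM counts and 0.0020 with the block and RSEM counts, *BACH1* at -0.022 with log2(TPM + 1) and -0.023 with log2(TPM + 0.1), and the *HMOX1* to *HMOX2* ratio at 0.0032 from counts. The causes were not tested. Leaving out 1 library moved *HMOX1* between -0.16 and 0.22, *HMOX2* between -0.031 and 0.013, *BLVRA* between 0.10 and 0.30, *BLVRB* between -0.14 and 0.031, *FLVCR1* between -0.088 and 0.056, *FLVCR2* between 0.09 and 0.21, *SLC48A1* between -0.14 and 0.089, *BACH1* between -0.021 and 0.044, and the median between -0.024 and 0.031. With the block and a pair left out, *HMOX1* ran from -0.13 to 0.061 (0.061 without pair 1 and 0.023 without pair 3), *HMOX2* from -0.023 to 0.0079 and *BACH1* from -0.015 to 0.029. *BLVRA* then ran from 0.11 to 0.25 and *FLVCR2* from 0.11 to 0.20, each highest without pair 1. With a library left out, the log2 changes of the ratios ran from -0.18 to 0.13 for *HMOX1* to *HMOX2*, from 0.07 to 0.41 for *BLVRA* to *BLVRB* and from -0.12 to 0.091 for *FLVCR1* to *FLVCR2*, which was -0.17 from RSEM counts and -0.18 from reverse-strand counts.

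The count over all genes was 1 as reported, 670 with the replicate block, 609 with the block and limma-voom, 394 with the block and RSEM counts, 617 with the block and library size alone, 25 with DESeq2 and 9 without a low-count filter. It was 0 with limma on log2(TPM + 1) and log2(TPM + 0.1), where 1062 and 1077 genes had an unadjusted P under 0.05, 1 to 2 with a library left out, and 2034, 24 and 636 with the block and pair 1, 2 or 3 left out. For the 23 genes around BACH1 the count was 0 as reported, 8 with the block and also with it and limma-voom, RSEM counts or library size alone, 1 with DESeq2, 0 with a library left out, and 3 to 11 with the block and a pair left out, the lower count with pair 2 out and the higher with pair 1 out. With a pair left out it was 0 to 2 for the 9 genes and 0 to 1 for the oxygenase partners, where *HM13* passed without the replicate 1 pair (0.08, adjusted p = 0.0204, edgeR). The block changed no call on the 9 genes or the other lists. *HMOX1*, the least abundant of the 9, rested on 187 to 427 fragments per library, and the part of counting error in its spread was not tested.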

Other observations

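Genes of other regulators that bind heme or act in pathways it controls gave no call. Of 8 such genes, 7 were tested, and 0 passed an adjusted p of 0.05 with or without the block, with a median log2 fold change of -0.02. *ATF4*, the transcription factor of the integrated stress response, was at 415 ± 17.6 TPM in DMSO and 398 ± 6.06 TPM in S767 (SD, n = 3). *EIF2AK1*, the kinase that heme holds inactive, was at 65.5 ± 3.34 and 66.2 ± 2.04 TPM. Of 9 erythroid genes only *EPOR*, the erythropoietin receptor, was tested, with a log2 fold change of 0.0073 (SE 0.08).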
